A study of Mus musculus with 23 samples.

Results

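Glycolysis and its regulator hypoxia-inducible factor 1 were followed in mouse microglia through 10 genes: the glucose transporter gene Slc2a1, the enzyme genes Hk2, Pfkl, Pfkp, Aldoa, Gapdh, Pgk1, Pkm and Ldha, and the transcription factor gene Hif1a. The 10 symbols matched 11 of the 53090 gene identifiers in the deposited tables, because Aldoa occurs under 2 identifiers, and all 11 passed the filter on low counts. Messenger RNA was sequenced in 23 libraries of microglia from female C57BL/6 mice. The 4 groups were young (label Y, n = 7), young repopulated (Y-re, n = 3), old (O, n = 5) and old repopulated (O-re, n = 8). Repopulated mice had eaten AIN-76A chow with the CSF1R inhibitor PLX5622 at 1200 ppm, which removes microglia, and control mice had eaten the same chow without the drug. The mice's ages, how long the drug was given and how long cells had to return were not found in the labels. The labels do not say that each library came from a separate animal, so the p-values measure only the spread between these libraries.

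Glycolysis splits glucose to pyruvate in the cytosol. Glucose enters through transporters such as GLUT1, is trapped by hexokinase, is committed by phosphofructokinase, and yields ATP at the phosphoglycerate kinase and pyruvate kinase steps. Lactate dehydrogenase turns pyruvate into lactate and restores NAD+, which keeps the pathway running when mitochondria use less pyruvate. HIF-1α, the protein of Hif1a, is destroyed when oxygen is plentiful and otherwise activates many glycolytic genes, and microglia and macrophages are known to raise glycolysis when activated by inflammatory signals.

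The libraries held 43657297 to 58189402 counts. Levels are given below as CPM, counts per 1000000 after TMM scaling, which compares a gene between libraries, or as the deposited TPM, which also divides by gene length and allows different genes to be compared. The 10 microglial markers summed to between 10730 and 31660 CPM, so the labelled cell type was present in every library. The sums of 8 neuronal and of 8 lymphocyte markers did not pass 5.49 and 2.48 CPM. Those of 10 monocyte and neutrophil, 8 border-associated macrophage, 8 astrocyte and 8 oligodendrocyte markers reached 1474, 1235, 180.5 and 139.8 CPM. Young replicate 3 stood apart from the other libraries on the second principal component (-185) and had the fewest genes with a count (16399). The sample titles number the libraries, and those numbered 1 to 11 (3 young, 2 old, 5 old repopulated) were also compared apart from those numbered 12 to 24 (4 young, 3 young repopulated, 3 old, 3 old repopulated). What separated these runs in the laboratory is not stated.

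HIF binds DNA at a short core, and the promoters of the members are shown first because the core was found in each of the 10 genes. The windows are the 250 bases before the RefSeq transcript start (GRCm38.p6), written 5′ to 3′ on the strand of the gene. Matches to the HIF core ACGTG or GCGTG, on either strand (so also CACGT or CACGC), are in capitals. The E-box CACGTG holds a match on each strand. Pfkp and Hk2 are shown as the members that moved in opposite directions, and Ldha and Pgk1 as the pair whose levels were most alike. Pfkp lies at chr13:6648772-6649021 (minus strand), Hk2 at chr6:82774455-82774704 (minus strand), Ldha at chr7:46845554-46845803 (plus strand) and Pgk1 at chrX:106186850-106187099 (plus strand).
Pfkp: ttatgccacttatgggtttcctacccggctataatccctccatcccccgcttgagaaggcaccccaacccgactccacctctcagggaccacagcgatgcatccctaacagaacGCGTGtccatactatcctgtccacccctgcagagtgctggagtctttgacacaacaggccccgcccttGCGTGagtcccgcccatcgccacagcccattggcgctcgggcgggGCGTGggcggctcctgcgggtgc
Hk2: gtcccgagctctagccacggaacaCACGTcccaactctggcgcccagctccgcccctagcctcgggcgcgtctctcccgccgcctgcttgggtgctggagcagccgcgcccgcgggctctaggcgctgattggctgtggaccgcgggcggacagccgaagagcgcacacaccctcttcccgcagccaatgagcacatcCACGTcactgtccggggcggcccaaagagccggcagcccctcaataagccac
Ldha: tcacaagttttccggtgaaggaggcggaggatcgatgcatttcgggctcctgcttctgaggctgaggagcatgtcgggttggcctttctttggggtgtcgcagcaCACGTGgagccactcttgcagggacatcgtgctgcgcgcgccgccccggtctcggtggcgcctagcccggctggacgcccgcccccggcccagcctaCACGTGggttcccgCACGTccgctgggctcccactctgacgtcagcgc
Pgk1: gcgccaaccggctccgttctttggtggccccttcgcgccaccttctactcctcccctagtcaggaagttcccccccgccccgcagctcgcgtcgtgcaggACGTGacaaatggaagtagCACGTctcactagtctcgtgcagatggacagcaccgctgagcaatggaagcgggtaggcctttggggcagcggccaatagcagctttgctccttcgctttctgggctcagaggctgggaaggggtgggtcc
The Pfkp window has 3 matches, all GCGTG on the gene's own strand. The Hk2 window has 2 matches on the other strand. The Ldha window has 5 matches, more than any other member window, and 4 of them make up a pair of E-boxes. The Pgk1 window has 2 matches, 1 on each strand. Of the 14 windows listed for the members, 12 held at least 1 match, against 38.6% of 32851 windows of the same length in the RefSeq table. A pair of overlapping Aldoa windows holds the same match, which is therefore counted in both. Counted by gene, which can have several windows, all 10 members and 41.5% of 27025 genes held a match. An E-box was found in 14.3% of the member windows and in 6.02% of all windows. At least 4 matches were found in the single Ldha window shown and in 2.58% of all windows. The member windows and all windows were not matched for base composition. A match describes letters and shows neither binding nor a cause.

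The order of the members per gene length was the same in all 4 groups. In young libraries mean TPM ran from Pkm (768 ± 116, SD, n = 7), Aldoa (609 ± 101) and Ldha (400.4 ± 62.7) through Gapdh (216 ± 29.8), Pgk1 (212 ± 56.2), Hif1a (166 ± 31.0) and Hk2 (146 ± 34.6) to Pfkl (82.0 ± 13.5), Slc2a1 (67.0 ± 18.2) and Pfkp (4.92 ± 5.52). In young libraries the ranges of neighbours in this order overlapped, except between Ldha and Gapdh and between Slc2a1 and Pfkp. In old repopulated libraries the same order ran from Pkm at 939 ± 286 TPM (SD, n = 8) to Pfkp at 26.4 ± 20.7 TPM, and every neighbour overlapped the next. Pkm, Aldoa and Ldha thus ranked highest in every group, and Pfkp was the scarcest. The places of Gapdh and Pgk1 are uncertain, because both share sequence with copies elsewhere, as given below. The Aldoa identifier ENSMUSG00000114515.1 stayed at or under 0.882 CPM in every library, and Aldoa below means ENSMUSG00000030695.15.

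**Figure D1:**
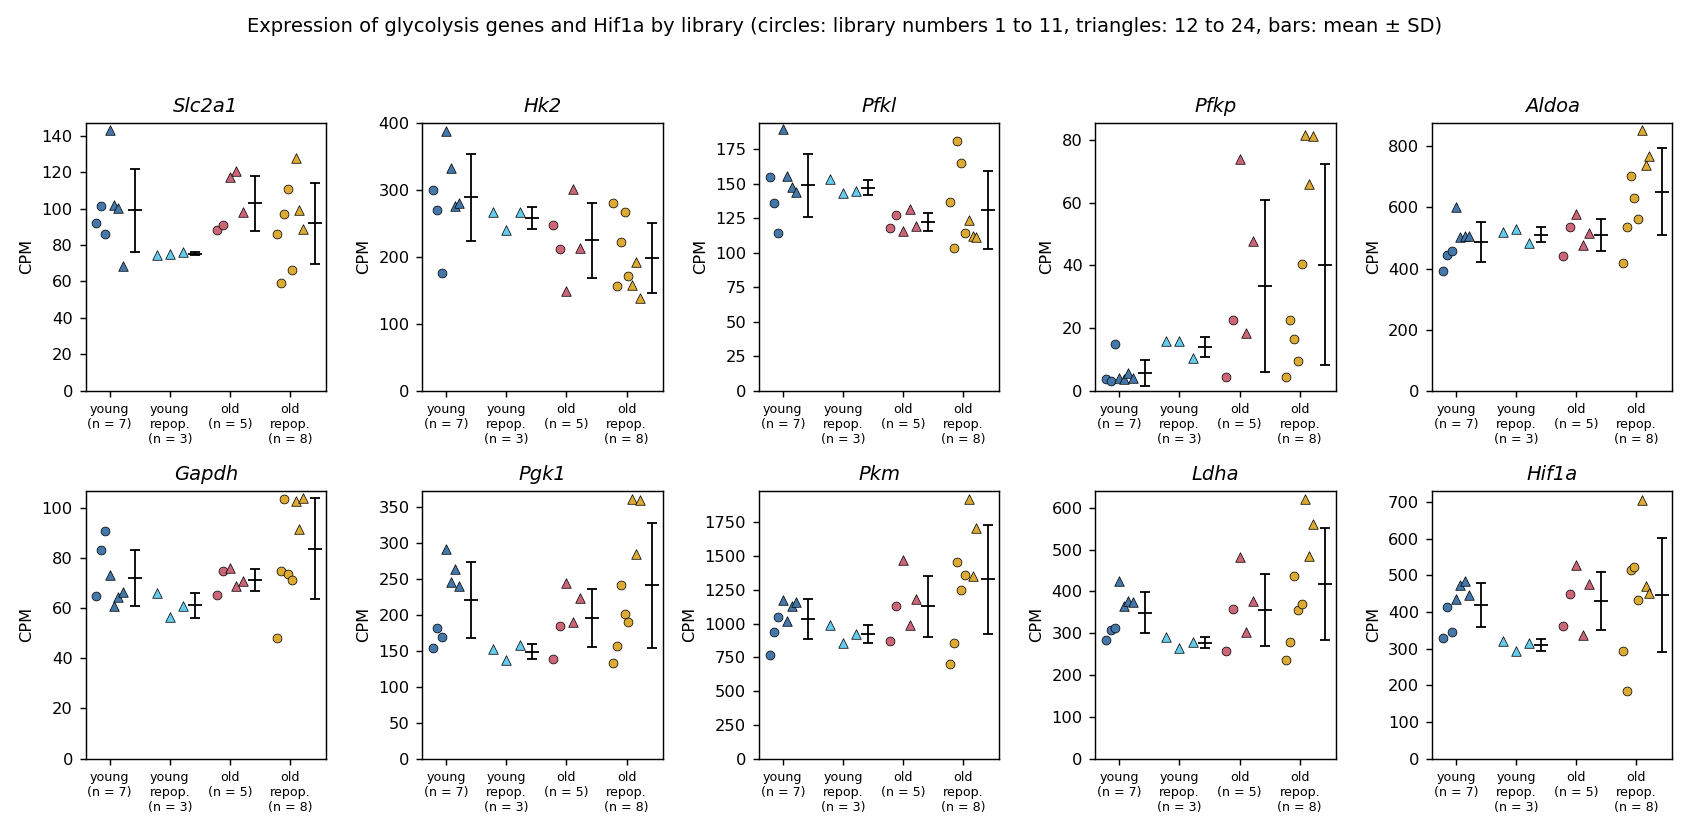
Expression of the 10 genes in each library, in CPM on a linear axis from 0, by group on the horizontal axis (circles, library numbers 1 to 11; triangles, 12 to 24; bars, mean ± SD). Pfkp stayed between 3.26 and 14.8 CPM in young libraries and reached 81.5 CPM in old repopulated libraries, while Hk2 lies lower (mean 198 against 288.5 CPM) and Aldoa higher (652 against 488 CPM) in old repopulated than in young libraries.

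Groups were compared with edgeR's quasi-likelihood test, and a gene is called higher or lower where the p adjusted over 18720 genes is under 0.05. Differences are on the log2 scale. Slc2a1 encodes GLUT1, the basal glucose transporter. Young libraries ranged from 68.4 to 143 CPM with a median of 100.1, and old repopulated libraries from 59.4 to 128 CPM with a median of 92.8. The 3 young repopulated libraries had 74.7, 74.9 and 76.0 CPM, close together and inside the lower end of the young range. The 5 old libraries had 88.1, 91.0, 117, 121 and 98.0 CPM. The value nearest to the threshold was that of young repopulated versus young, at -0.40 ± 0.20 (SE, edgeR adjusted p 0.353).

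Hk2 (ENSMUSG00000000628.10, GRCm38 chromosome 6, 82725025 to 82774454), the inducible hexokinase that phosphorylates glucose on entry, was the only member that fell in the fit of all libraries. Young libraries ranged from 175 to 388 CPM with a median of 281. The 3 young repopulated libraries had 267, 239.6 and 267 CPM. The 5 old libraries had 248, 211, 149, 301 and 213 CPM. Old repopulated libraries ranged from 139 to 279.9 CPM with a median of 182, and overlapped the lower part of the young range. Hk2 fell by 0.54 ± 0.17 (SE) on the log2 scale in old repopulated versus young (edgeR adjusted p 0.0324). The fall was -0.96 ± 0.21 within library numbers 12 to 24 (edgeR adjusted p 0.00302), and the value was -0.17 ± 0.22 within 1 to 11 (adjusted p 0.835). The call was lost when young replicate 1, 4 or 5 or old repopulated replicate 2, 5, 6, 7 or 8 was left out, with edgeR adjusted p up to 0.0797. The value in old versus young was -0.36 ± 0.19 (edgeR adjusted p 0.384). The libraries with the least Hk2 were old repopulated replicate 8, old replicate 3 and old repopulated replicates 2 and 6. They had 139, 149, 156.5 and 158 CPM of Hk2. Their microglial sums were 10730, 11430, 16780 and 11530 CPM, and their monocyte and neutrophil sums 666, 1474, 212 and 1145 CPM. The part of other cells in the Hk2 values was not tested. In bulk samples such as these, fewer cells of a type and less RNA per cell cannot be told apart.

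Pfkp, the platelet-type isozyme of phosphofructokinase (ENSMUSG00000021196.14, GRCm38 chromosome 13, 6579768 to 6648777, protein-coding), was the member with the largest change with age. Young libraries ranged from 3.26 to 14.8 CPM with a median of 3.92. The 3 young repopulated libraries had 16.02, 15.9 and 10.4 CPM. The 5 old libraries had 4.51, 22.5, 73.9, 18.5 and 47.6 CPM. Old repopulated libraries ranged from 4.47 to 81.5 CPM with a median of 31.5. All groups overlapped: old replicate 1 and old repopulated replicate 1 lay among the young libraries, and young replicate 3, at 14.8 CPM, lay above every other young library. Pfkp rose by 2.58 ± 0.64 (SE) on the log2 scale in old versus young, or 5.98-fold (edgeR quasi-likelihood test, adjusted p 0.0288). It rose by 2.85 ± 0.60 in old repopulated versus young, or 7.20-fold (edgeR adjusted p 0.00383). The value was 1.34 ± 0.71 in young repopulated versus young (adjusted p 0.388) and 0.27 ± 0.61 in old repopulated versus old (adjusted p 0.952), neither of which passed the edgeR threshold of 0.05.

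The fitted rise of Pfkp was larger in library numbers 12 to 24 than in 1 to 11. Whether the runs differed was not tested. Within numbers 12 to 24 the 4 young libraries averaged 4.32 ± 0.876 CPM (SD), the 3 old libraries 46.7 ± 27.7 and the 3 old repopulated libraries 76.3 ± 8.89, without overlap between young and either old group. The 3 young repopulated libraries, all in these numbers, averaged 14.1 ± 3.20 CPM. They did not overlap these young libraries either, and Pfkp was called higher in them within this run. Within numbers 1 to 11 the 3 young libraries averaged 7.29 ± 6.54 CPM, the 2 old libraries 13.5 ± 12.7 and the 5 old repopulated libraries 18.7 ± 14.0, with overlap. That young mean includes replicate 3, at 14.8 CPM, beside 3.78 and 3.26 CPM in replicates 1 and 2. In the lower numbers 1 of 18746 genes was called in old versus young, so a value that did not pass there says little. The fitted difference in old versus young was 3.44 ± 0.35 (SE, edgeR adjusted p 0.000155) in the higher numbers and 0.88 ± 0.90 (edgeR adjusted p 1.0) in the lower numbers. Against young, the old repopulated value was 4.15 ± 0.36 in the higher and 1.35 ± 0.77 in the lower numbers, the latter with an edgeR adjusted p of 0.534. With the run of library numbers as a term the Pfkp call in old versus young was lost, at 2.16 ± 0.61 (edgeR adjusted p 0.0543), while that in old repopulated versus young held, at 2.59 ± 0.56 (adjusted p 0.00258). Without young replicate 3 the old versus young value was 3.04 ± 0.65 (edgeR adjusted p 0.00982). The call in old versus young was also lost when young replicate 1, 2, 4, 5, 6 or 7 or old replicate 3 or 5 was left out, with edgeR adjusted p up to 0.177, whereas the call in old repopulated versus young held in all 23 such fits.

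Markers of other myeloid cells moved with Pfkp. The summed CPM of 10 monocyte and neutrophil markers ranged from 27.0 to 139 in young, 86.3 to 320 in young repopulated, 180 to 1474 in old and 110 to 1145 in old repopulated libraries, and none of the 10 was at 0 in all libraries. Of these 10 markers, 7 rose in old versus young and 7 in old repopulated versus young by edgeR, and none fell, while 1 of the 11 identifiers of the 10 microglial markers fell in the first and 4 in the latter. The summed CPM of 8 border-associated macrophage markers ranged from 58.9 to 223 in young, 295 to 411 in young repopulated, 185 to 879 in old and 70.3 to 1235 in old repopulated libraries. The microglial sum ranged from 26200 to 31660 in young, 23270 to 26970 in young repopulated, 11430 to 26270 in old and 10730 to 29390 in old repopulated libraries. The 5 libraries with the most Pfkp were old repopulated replicates 6, 8 and 7 and old replicates 3 and 5, at 81.5, 81.3, 66.02, 73.9 and 47.6 CPM. Their monocyte and neutrophil sums were 1145, 666, 574, 1474 and 755 CPM, the 5 highest of the 23 libraries. The part of these other cells in the Pfkp values was not tested.

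Pfkl, the liver-type phosphofructokinase, is the main isozyme of this step in these cells. Pfkl in young libraries ranged from 115 to 190 CPM with a median of 148. Pfkl in the 3 young repopulated libraries was 153, 143 and 145 CPM. Pfkl in the 5 old libraries was 118, 127, 116, 132 and 120 CPM, within the young range but below its median. In the old repopulated group Pfkl ranged from 104 to 181 CPM with a median of 119. The difference in old versus young was -0.28 ± 0.13 (SE, unadjusted p 0.0376, edgeR adjusted p 0.286). Within library numbers 12 to 24 Pfkl was called lower in old versus young, at -0.37 ± 0.10 (edgeR adjusted p 0.0235), and in the lower numbers no member was called. Pfkl and Pfkp therefore had opposite signs with age in the fit of all libraries, and for Pfkl the value did not pass the test.

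Aldoa encodes aldolase A, which splits fructose 1,6-bisphosphate. Young libraries ranged from 393 to 603 CPM with a median of 503. Aldoa in the 3 young repopulated libraries was 521, 529 and 483 CPM. Aldoa in the 5 old libraries was 441, 535, 580, 478 and 515 CPM. Old repopulated libraries ranged from 418 to 855 CPM with a median of 668, and the upper part of that group lay above every young library while its lower part overlapped them. Aldoa rose by 0.42 ± 0.12 (SE) in old repopulated versus young, or 1.34-fold (edgeR adjusted p 0.0240). The call was lost without young replicate 1 or old repopulated replicate 6 or 8, with edgeR adjusted p up to 0.0571. Its size was close in both runs, at 0.41 ± 0.17 within library numbers 1 to 11 (edgeR adjusted p 0.434) and 0.58 ± 0.09 within 12 to 24 (adjusted p 0.000417). Against old libraries the old repopulated value was 0.35 ± 0.13 (unadjusted p 0.0151, edgeR adjusted p 0.308). The libraries with the most Aldoa were old repopulated replicates 6, 8 and 7, at 855, 767 and 740.5 CPM. Their monocyte and neutrophil sums were 1145, 666 and 574 CPM, and the part of these cells in the Aldoa values was not tested.

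Gapdh, glyceraldehyde-3-phosphate dehydrogenase, and Pgk1, phosphoglycerate kinase, catalyse the next steps. Gapdh ranged from 60.9 to 90.8 CPM in young libraries (median 66.4) and from 48.1 to 104 CPM in old repopulated libraries (median 83.2). The 3 young repopulated libraries had 66.1, 56.4 and 60.8 CPM, and the 5 old libraries 65.2, 75.0, 76.1, 69.0 and 70.8 CPM of Gapdh. No Gapdh difference passed in the fit of all libraries. The lowest Gapdh p was that of old repopulated versus young repopulated, at 0.45 ± 0.17 (SE, unadjusted p 0.0162, edgeR adjusted p 0.395).

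Pgk1 ranged from 154 to 292 CPM in young libraries (median 239.5) and from 133 to 361 CPM in old repopulated libraries (median 221). Pgk1 in the 3 young repopulated libraries was 153, 137 and 158 CPM, at or below the lower end of the young range. The 5 old libraries had 139, 184, 244, 189.5 and 223 CPM of Pgk1. Pgk1 differed by -0.57 ± 0.27 (SE) in young repopulated versus young (unadjusted p 0.0460, edgeR adjusted p 0.320) and by 0.69 ± 0.27 in old repopulated versus young repopulated (adjusted p 0.395). With the run of library numbers as a term it was called in both, at -0.82 ± 0.16 (edgeR adjusted p 0.0107) and 1.05 ± 0.16 (adjusted p 0.00722). The interaction, which is the repopulation difference in old less that in young mice, was 0.87 ± 0.35 for Pgk1 in the fit of all libraries (edgeR adjusted p 0.536) and 1.22 ± 0.21 with the run as a term (adjusted p 0.0220).

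Both genes share sequence with copies elsewhere, so their counts are uncertain. Of the distinct 50-nt words in the GENCODE M21 transcripts of Pgk1, 53.9% also occurred in other genes, and the deposited copies Gm5537 and Pgk1-rs7 held 21.3% as many counts as Pgk1 itself. For Gapdh 24.7% of words were shared, and its 57 deposited copies held 18.3% as many counts. A copy here shares at least 50 words, which are at least 20% of its own. With the copies added, mean Pgk1 was 263 ± 60.6 CPM (SD) over 7 young, 188 ± 8.79 over 3 young repopulated, 238 ± 41.2 over 5 old and 292 ± 101 over 8 old repopulated libraries, the same order as without them (221, 149, 196 and 241 CPM). Pkm shared 25.8% of its words, Ldha 9.03%, Aldoa 6.43% and Hif1a 1.72%, but the deposited copies of Pkm and Hif1a held only 0.167% and 0.624% as many counts, and no copy of Ldha or Aldoa met this rule. No words of Hk2, Pfkp or Slc2a1 were shared.

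Pkm encodes pyruvate kinase, the last step of glycolysis. Pkm in young libraries ranged from 768 to 1178 CPM with a median of 1048. Pkm in the 3 young repopulated libraries was 989, 855 and 926 CPM. Pkm in the 5 old libraries was 872, 1127, 1471, 989.9 and 1183 CPM. Old repopulated libraries spread from 697 to 1924 CPM with a median of 1358, both below and above all young libraries. The difference in old repopulated versus young was 0.36 ± 0.17 (SE, unadjusted p 0.0436, edgeR adjusted p 0.150).

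Ldha encodes the A subunit of lactate dehydrogenase. Young libraries ranged from 283 to 424 CPM with a median of 365. The 3 young repopulated libraries had 289.8, 264 and 279 CPM, of which 1 lay inside the young range. Ldha in the 5 old libraries was 257, 359, 482, 304 and 376 CPM. Old repopulated libraries ranged from 235 to 622 CPM with a median of 402. The difference in old repopulated versus young repopulated was 0.59 ± 0.23 (SE, unadjusted p 0.0181, edgeR adjusted p 0.399), and it was 0.86 ± 0.18 with the run of library numbers as a term (edgeR adjusted p 0.0245).

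Hif1a encodes the oxygen-regulated subunit of HIF-1. Hif1a in young libraries ranged from 329 to 484 CPM with a median of 436. Hif1a in the 3 young repopulated libraries was 322, 293 and 315 CPM, all below the lowest young library. The 5 old libraries had 363, 448, 528, 338 and 478 CPM, inside and just above the young range. Old repopulated libraries ranged from 184 to 705 CPM with a median of 462, the widest spread of the 4 groups. Young repopulated versus young differed by -0.43 ± 0.25 (SE, edgeR adjusted p 0.446), which did not pass although the groups do not overlap. Voom with sample quality weights called that difference, at -0.52 ± 0.15 (adjusted p 0.0203). In old versus young and old repopulated versus young the Hif1a values were 0.04 ± 0.21 and 0.09 ± 0.19 (edgeR adjusted p 0.962 and 0.776). These are transcript levels, and HIF-1α protein was not measured.

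**Figure D2:**
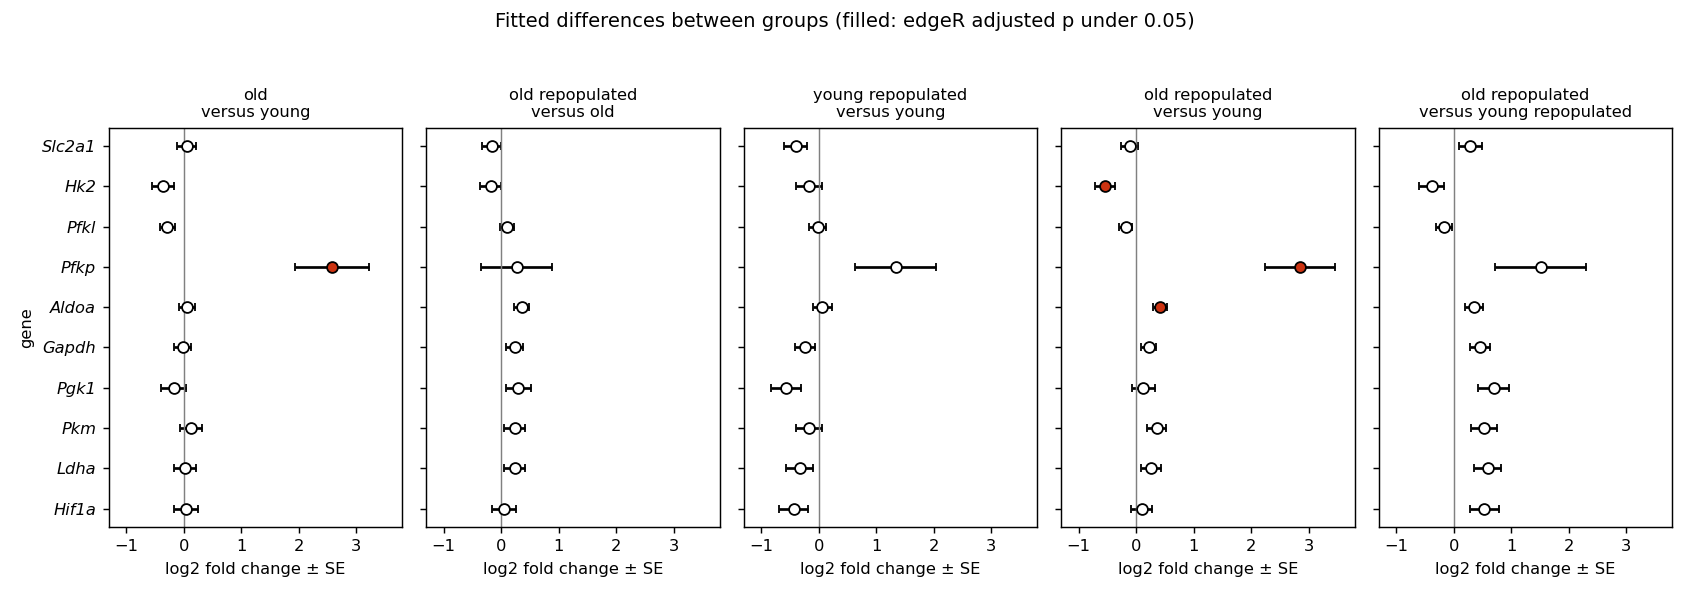
Fitted log2 fold changes with SE (horizontal axis) of the 10 genes in the 5 comparisons of groups; filled points have an edgeR adjusted p under 0.05. Pfkp at 2.58 and 2.85, Aldoa at 0.42 and Hk2 at -0.54 are the filled points.

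Few members passed in the fit of all libraries. In old versus young 1 of 11 identifiers was called (Pfkp, higher), where 2.83% of 18720 genes were called, 2.60% higher and 0.235% lower. Against young, 3 of 11 were called in old repopulated (Pfkp and Aldoa higher, Hk2 lower), where 15.2% of genes were called, 9.29% higher and 5.92% lower. In young repopulated versus young 0 were called, with 1.34% of genes called, 0.828% higher and 0.513% lower, and in old repopulated versus old 0 were called, with 0.278% of genes. Between old repopulated and young repopulated, and in the interaction, 0 members and 0.0% of genes were called. By unadjusted p under 0.05 the counts of the 10 genes were 2 in old versus young, 1 in old repopulated versus old (Aldoa), 1 in young repopulated versus young (Pgk1), 4 in old repopulated versus young, 6 in old repopulated versus young repopulated and 1 in the interaction (Pgk1). Of all 18720 genes 15.3%, 10.4%, 15.1%, 30.5%, 11.7% and 8.24% had such a p in the same order. DESeq2 called the same members as edgeR in every comparison, with 5.18%, 1.67%, 4.46%, 19.7%, 0.491% and 0.246% of all genes called in that order. Voom with sample quality weights called 3, 1, 3, 6, 7 and 1 members, where it called 12.6%, 2.21%, 13.8%, 35.5%, 17% and 0.807% of all genes. With the run of library numbers as a term edgeR called 0, 0, 1 (Pgk1), 4 (Hk2, Pfkp, Aldoa and Pkm), 4 (Aldoa, Pkm, Pgk1 and Ldha) and 1 (Pgk1), where 3.30%, 0.609%, 1.74%, 24.5%, 4.52% and 0.0374% of genes were called.

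The direction of the members can be described by counts. Between old repopulated and old libraries 8 of the 10 genes were above 0 and 2 below, with a median of 0.23 against 0.00 over all genes tested. In young repopulated versus young 2 were above and 8 below, with a median of -0.20 against -0.04. Between old repopulated and young repopulated libraries 8 were above and 2 below, with a median of 0.49 against 0.05. In old versus young 6 were above and 4 below, with a median of 0.03 against -0.01, and with upper-quartile factors Ldha and Hif1a changed sign. For old repopulated versus young 7 were above and 3 below, with a median of 0.17 against -0.02. Single libraries moved these medians. Without old replicate 1 the median in old repopulated versus old was 0.11 (6 above, 4 below), and without old repopulated replicate 6 or 8 it was 0.12 or 0.14. Without young repopulated replicate 2 the median in young repopulated versus young was -0.11, and over all fits that left out 1 library that of old versus young ran from -0.04 to 0.13. For old repopulated versus young the median was 0.09 without old repopulated replicate 6 and 0.29 without replicate 1. Comparisons that share a group are not independent of each other.

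The runs of library numbers gave different counts. Within numbers 12 to 24 the members called were 2 in old versus young (Pfkp higher, Pfkl lower; 15.7% of 17186 genes), 4 in old repopulated versus old (Aldoa, Gapdh, Pgk1 and Ldha, all higher; 12.7%) and 2 in young repopulated versus young (Pfkp higher, Pgk1 lower; 9.30%). For old repopulated versus young 8 were called (41.1%), and in old repopulated versus young repopulated 9 (36.3%). In the interaction 6 were called (Hif1a, Aldoa, Pkm, Gapdh, Pgk1 and Ldha, all above 0), where 8.87% of genes were called. Within numbers 1 to 11, 0 members were called in old versus young, old repopulated versus old or old repopulated versus young, where 0.00533%, 0.0% and 0.0107% of 18746 genes were called. All young repopulated libraries have numbers from 22 to 24, so contrasts with that group could be compared only within the higher numbers. Where the shares of all genes called are large, the members' counts are read against them. In the higher numbers the old repopulated libraries were replicates 6, 7 and 8. Their monocyte and neutrophil sums were 1145, 574 and 666 CPM and their microglial sums 11530, 15120 and 10730 CPM. Young replicates 4 to 7, also in the higher numbers, had monocyte and neutrophil sums of 27.0 to 82.4 CPM. Old repopulated replicates 1 to 5, in the lower numbers, had 110 to 302 CPM of these markers. The part of these cells in the counts was not tested.

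Isozyme shares say which gene of a family supplied the transcripts of a step. The share of each gene in the summed TPM of its family was compared between groups by a two-sided exact permutation test, in 30 tests with Benjamini-Hochberg adjustment, and none passed (smallest adjusted p 0.137). Pfkp made up 5.55% ± 6.71 (SD, n = 7) of the phosphofructokinase transcripts in young, 11.4% ± 2.86 (n = 3) in young repopulated, 22.8% ± 15.5 (n = 5) in old and 25.2% ± 17.7 (n = 8) in old repopulated libraries. Pfkl made up 87.4% ± 6.87, 82.7% ± 2.89, 72.4% ± 14.0 and 69.2% ± 16.8 in the same order, and Pfkm, the muscle type, the rest. Old libraries thus held both young-like shares and libraries in which Pfkp supplied up to 42.9% of the transcripts.

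The other families differed in spread, from Aldoa with SDs of 0.145 to 0.631 percentage points to Ldha with up to 19.1. Hk2 made up 62.8% ± 6.06 (SD) of the hexokinase transcripts of Hk1, Hk2 and Hk3 in young and 50.5% ± 9.07 in old repopulated libraries (exact permutation p 0.00808, adjusted 0.137). Ldha made up 37.8% ± 5.65 of Ldha plus Ldhb in young, 40.7% ± 3.53 in young repopulated, 49.5% ± 15.1 in old and 57.3% ± 19.1 in old repopulated libraries. Slc2a1 made up 30.0% ± 5.88 of Slc2a1, Slc2a3 and the fructose transporter gene Slc2a5 in young and 47.2% ± 17.5 in old repopulated libraries, while Slc2a5 went from 148 ± 30.7 to 68.9 ± 61.7 TPM. Aldoa supplied between 98.3% and 99.7% of Aldoa plus Aldoc in every library. Young and old repopulated libraries overlapped in every family. The highest Ldha shares were in old repopulated replicates 8, 6 and 7 and old replicate 3, at 83.05%, 80.3%, 70.9% and 73.1%. Slc2a1 shares were highest in the same libraries, at 61.5%, 74.7%, 60.9% and 63.4%, and so were those of Pfkp. Their microglial sums, 10730, 11530, 15120 and 11430 CPM, were the lowest of all libraries. The part of other cells in the shares was not tested.

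**Figure D3:**
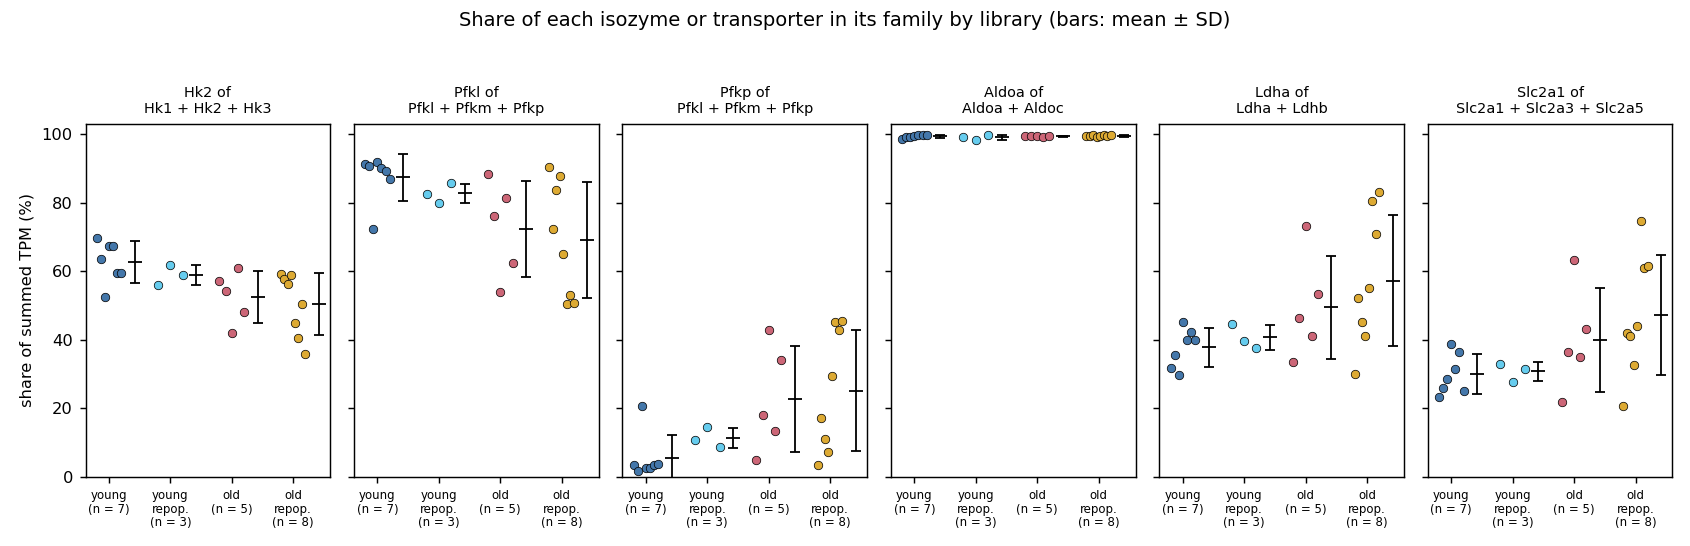
Share of each gene in the summed TPM of its family (vertical axis, percent) in each library, by group, with mean ± SD bars. Aldoa lies near 99% throughout, while Pfkp, Ldha and Slc2a1 spread most widely in the old and old repopulated groups.

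Within groups the members varied together in blocks. Pearson's r of log2 CPM was computed over the 23 libraries after taking off group means, for 45 pairs, with permutation p (100000 resamples within groups, smallest p 1e-05) adjusted over the pairs. At an adjusted p under 0.05, 22 pairs passed, 20 with positive and 2 with negative r, and the median r was 0.535. The share of pairs passing among all genes was not computed, so the count cannot be called particular to the members. By Spearman's rho some of the 22 did not pass, such as Gapdh and Pkm (adjusted permutation p 0.0528). Hk2 and Gapdh, a negative pair (r -0.551), passed neither by rho nor within runs of library numbers (adjusted permutation p 0.115 and 0.2755). Ldha, Pgk1, Pkm and Aldoa formed the tightest set: r was 0.959 for Pgk1 and Ldha (rho 0.955), 0.955 for Pkm and Ldha (rho 0.925) and 0.944 for Aldoa and Ldha (rho 0.944), each with a permutation p of 1e-05. Leaving out the 2 libraries farthest from the median of Pgk1, Pkm or Aldoa gave 0.940, 0.930 and 0.907. The 4 libraries with the most Ldha (old repopulated replicates 6, 8 and 7 and old replicate 3, at 622, 561, 485 and 482 CPM) are among the 5 with the highest monocyte and neutrophil sums and are the 4 with the lowest microglial sums (11530, 10730, 15120 and 11430 CPM). The part of these cells in the correlations was not tested. Hif1a followed this set with lower r, at 0.820 for Pkm (permutation p 0.00051; rho 0.730, p 0.00059) and 0.790 for Ldha (permutation p 0.00042; rho 0.796, p 0.00016).

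Hk2 and Pfkp ran against each other, with r of -0.768 (permutation p 0.00027, adjusted 0.00174; rho -0.758, p 0.00046). Without the 2 libraries farthest from the Hk2 median r was -0.702. The libraries with the most Pfkp had the highest monocyte and neutrophil sums, and the part of these cells in this r was not tested. Hk2 varied with Pfkl instead (r 0.752, permutation p 0.00037, adjusted 0.00208; rho 0.852, p 5e-05). With means of each group within each run of library numbers taken off, 17 pairs passed, 14 of them shared with the 22. In that analysis r was 0.945 for Pgk1 and Ldha, -0.818 for Hk2 and Pfkp and 0.678 for Hk2 and Pfkl. The r of Pfkp with Ldha (0.741, permutation p 0.0015; rho 0.611, p 0.00902) became 0.629 and did not pass within runs (permutation p adjusted 0.0913).

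**Figure D4:**
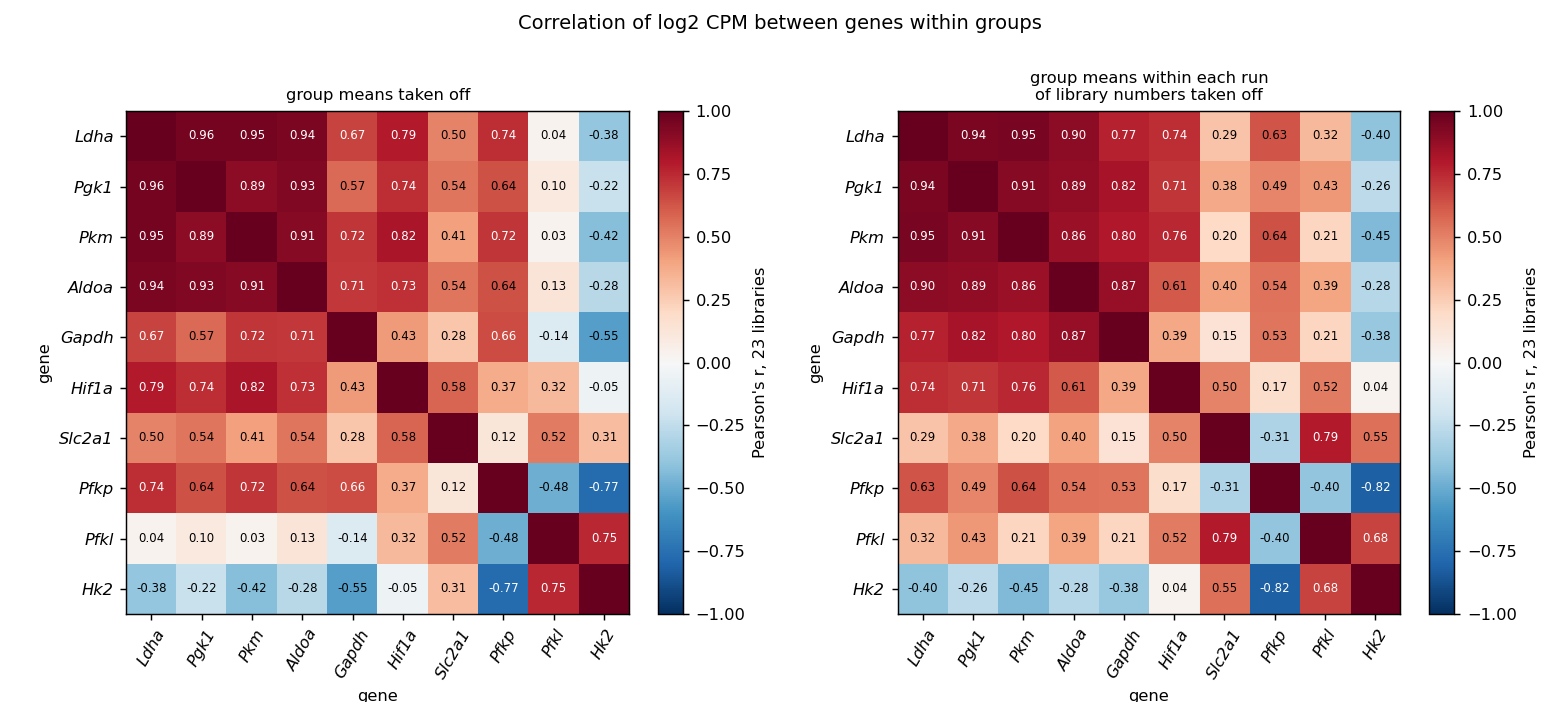
Pearson's r of log2 CPM between genes over 23 libraries, with group means taken off (left) or means of groups within each run of library numbers taken off (right); red is positive and blue negative. Ldha, Pgk1, Pkm and Aldoa form a red block in both, and the Hk2 and Pfkp cell is blue at -0.77 and -0.82.

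The gene most like each member in this measure, among 9625 genes of at least 5 mean CPM, is given as a description, with no p because it is the highest of many. For Pgk1, Pkm and Aldoa it was Ldha, and for Ldha it was Pgk1. For Pfkp it was Emilin2, an extracellular matrix glycoprotein gene (r 0.986, rho 0.958), and for Hk2 it was Tmem206, a chloride channel gene (r 0.943). For Slc2a1 it was Slc16a3, which encodes the lactate exporter MCT4 (r 0.862, rho 0.847). For Hif1a it was Procr, the protein C receptor gene (r 0.901, rho 0.748), for Gapdh the septin gene Sept6 (r 0.846) and for Pfkl Mfhas1 (r 0.803). Without the 2 farthest libraries r was 0.980 for Pfkp and Emilin2, 0.708 for Hif1a and Procr and 0.651 for Gapdh and Sept6.

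Other genes of the pathway were taken from lists and set beside the members. Counts of these lists in old repopulated versus young are read against the 9.29% of all genes called higher and 5.92% called lower, and in old versus young against 2.60% and 0.235%. The markers moved in the first of these comparisons too: 7 of 10 monocyte and neutrophil and 5 of 8 border-associated macrophage markers rose and 4 of 11 microglial identifiers fell, and their part in the lists was not tested. Of 14 other glycolytic enzymes tested, 3 rose and 1 fell in old repopulated versus young, with a median of 0.26 against -0.02 over all genes. Gpi1, phosphoglucose isomerase, rose by 0.43 ± 0.09 (SE, edgeR adjusted p 0.00336), Adpgk, an ADP-dependent glucokinase, by 0.35 ± 0.09 (0.0105) and Hk1 by 0.53 ± 0.15 (0.0253, lost without young replicate 1 or old repopulated replicate 6 or 8). Ldhb, the B subunit of lactate dehydrogenase, fell from 358 ± 33.7 CPM in young to 199 ± 108 in old repopulated libraries, a change of -0.85 ± 0.28 (edgeR adjusted p 0.0392), and was called in 10 of 23 fits that left out 1 library. Gpi1 also rose in young repopulated versus young, from 279 ± 24.5 CPM (SD, n = 7) to 384 ± 14.4 (n = 3) without overlap, at 0.46 ± 0.12 (edgeR adjusted p 0.0483). That call held in 7 of 23 fits that left out 1 library. No enzyme of this list passed in old versus young or old repopulated versus old.

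Among 10 genes listed as hexose and lactate transporters 0 rose and 3 fell in old repopulated versus young (5.92% of all genes lower). What the listed proteins carry in these cells was not measured. Bsg, the chaperone of lactate transporters, fell by 0.39 ± 0.10 (SE, edgeR adjusted p 0.0110), Slc16a6 by 0.46 ± 0.13 (0.0199, lost without young replicate 2) and Slc2a9 by 0.40 ± 0.13 (0.0483), the last called in 5 of 23 fits that left out 1 library. Among 14 regulators of glycolysis only Pfkfb3, which makes the phosphofructokinase activator fructose 2,6-bisphosphate, passed in old repopulated versus young, with a fall of -0.53 ± 0.14 (edgeR adjusted p 0.0159). Among 12 HIF subunits and regulators only Vhl, which marks HIF-1α for destruction, passed, at -0.33 ± 0.10 (edgeR adjusted p 0.0299), in 16 of 23 fits that left out 1 library. In the other 5 contrasts these 3 lists had no called gene.

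Of 19 tested HIF target genes outside glycolysis, 1 rose in old versus young, and 3 rose and 2 fell in old repopulated versus young, with medians of -0.12 and 0.02 (2.83% and 15.2% of all genes called). Vegfa, the vascular growth factor gene, averaged 15.2 ± 9.90 CPM (SD) in the 7 young, 48.3 ± 15.2 in the 3 young repopulated, 181 ± 139.9 in the 5 old and 169.5 ± 142 in the 8 old repopulated libraries. It rose by 3.58 ± 0.73 (SE, edgeR adjusted p 0.01) in old versus young and by 3.48 ± 0.69 (adjusted p 0.00257) in old repopulated versus young. Its groups overlapped, since the lowest old library had 14.8, the lowest old repopulated library 10.5 and the highest young library 30.8 CPM. The old versus young call was lost without old replicate 3, at an edgeR adjusted p of 0.0524, and within library numbers 1 to 11 the old versus young value was 2.56 and did not pass (edgeR adjusted p 1.0). Hmox1, heme oxygenase 1, rose by 0.89 ± 0.24 (adjusted p 0.0174) and Ndrg1 by 1.98 ± 0.65 (0.0433) in old repopulated versus young by edgeR. Bnip3, a mitophagy receptor, fell by 0.41 ± 0.13 (0.0332) and Kdm3a, a histone demethylase, by 0.33 ± 0.11 (0.0422). The calls of Ndrg1, Bnip3 and Kdm3a held in 10, 14 and 7 of 23 fits that left out 1 library. The myeloid marker sums given above beside Pfkp apply to Vegfa too, and their part in its values was not tested.

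Routes that branch from glycolysis had called genes too. Of 8 pentose phosphate pathway genes, which supply NADPH, 4 rose and 0 fell in old repopulated versus young (9.29% of all genes higher), with a median of 0.35 against -0.02 over all genes. Tkt rose by 0.53 ± 0.12 (SE, edgeR adjusted p 0.00533), G6pdx by 0.55 ± 0.12 (0.00542) and Pgd by 0.45 ± 0.10 (0.00549), and each was called in 23 of 23 fits that left out 1 library. Within library numbers 12 to 24 their values were 0.86, 0.67 and 0.61, and within 1 to 11 they were 0.26, 0.54 and 0.36 and did not pass. Of 12 genes for pyruvate entry to mitochondria, Pdp1, the phosphatase that activates pyruvate dehydrogenase, rose in old versus young from 4.22 ± 0.614 to 7.12 ± 1.55 CPM without overlap, at 0.76 ± 0.20 (edgeR adjusted p 0.0447), called in 12 of 23 fits that left out 1 library. It also rose in old repopulated versus young, at 0.84 ± 0.18 (adjusted p 0.00473), as did Dlat, a subunit of that complex, at 0.45 ± 0.12 (0.0155).

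**Figure D5:**
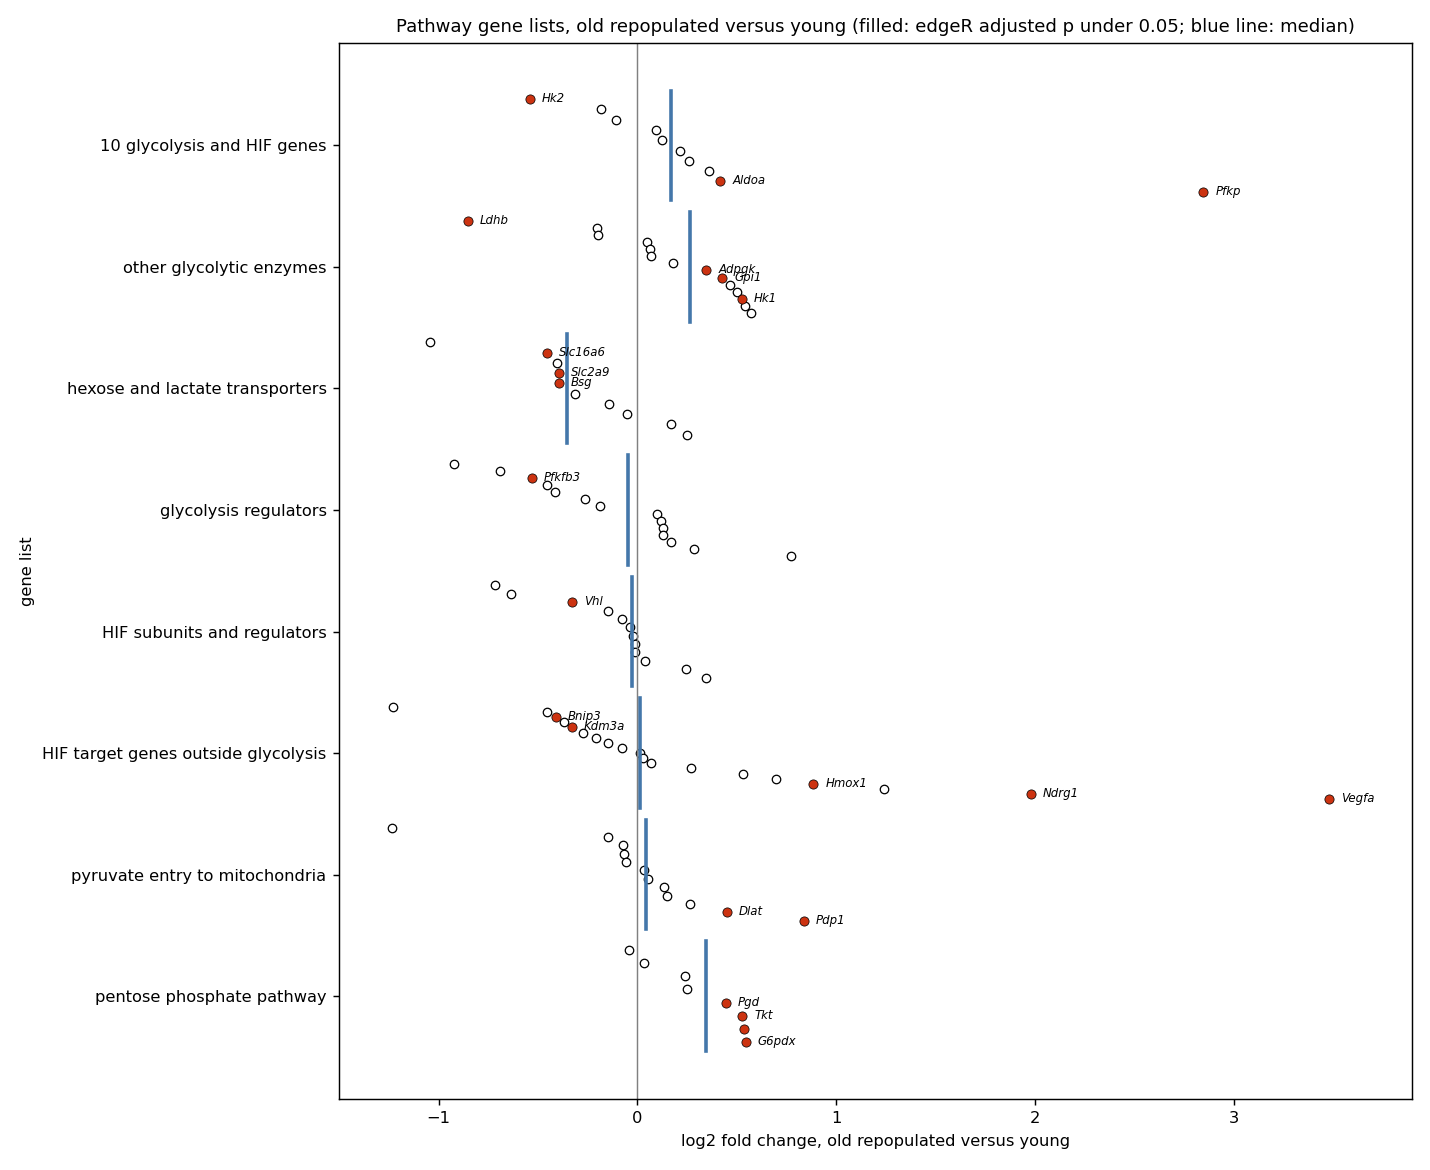
Log2 fold change in old repopulated versus young (horizontal axis) of each gene in the 8 lists (vertical axis); filled points have an edgeR adjusted p under 0.05, names are given for up to 3 rises and falls per list, and blue lines are list medians. Vegfa at 3.48, Pfkp at 2.85 and Ndrg1 at 1.98 lie farthest to the right.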

How the data were processed

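FACS-sorted microglia gave 2.4 to 147 ng RNA for TruSeq stranded mRNA libraries, per the labels' protocols (another of their texts describes CD11b selection with culture), and reads were single and 50 nt long. FastQC 0.11.5, STAR, RSEM, limma and build GRCm38 are listed in the submitters' processing notes, with no roles. The authors deposited 1 table per library with expected counts (estimated counts per gene), TPM (transcripts per 1000000, corrected for length) and an effective length. Expected counts were rounded and tested with edgeR 4.0.16 (R 4.3.3): filterByExpr, TMM, 1 model of all 23 libraries with 1 coefficient per group, quasi-likelihood test, Benjamini-Hochberg adjustment over 18720 genes, called under 0.05. Deposited TPM gave isozyme shares, tested with scipy 1.17.1. The fit was tested on simulated data, drawn without differences between runs of library numbers or in cell types. That test does not bear on either. RSEM divides reads among similar genes, and the use of strand is not given in the sources used here.

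Groups came from the labels. All 10 members were named in every comparison. From each pathway list, at most 3 called rises and 3 called falls per comparison, with the smallest adjusted p, were named. The members and lists were chosen with earlier results of these data known. Alternatives were DESeq2 1.42.0, limma 3.58.1 (voom, weighted by sample quality), RLE or upper-quartile factors, robust dispersion, all genes unfiltered, genes with 5 or more mean CPM, only the groups compared, the run of library numbers as a term, each run alone, an effective-length offset and leaving out each library. Correlations within runs, and leaving out each library for correlations and isozyme shares, were chosen after the data were seen. The matching of windows and words used RefSeq (GRCm38.p6) and GENCODE M21. Other marker lists were astrocyte, oligodendrocyte, endothelial, erythroid and immediate early genes. Their summed CPM ranged over all libraries from 19.6 to 180.5, 96.1 to 139.8, 18.5 to 68.5, 1.87 to 137.7 and 6803 to 18010.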

Additional observations from a re-analysis of the deposited data

Results flagged for a closer look

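Pfkp in young replicate 3 was 14.84 CPM, where the next highest of the 7 young libraries had 5.61, a gap of 0.797 of the range against a critical value of 0.568. The same library had the highest monocyte and neutrophil sum (139 CPM) and border-associated macrophage sum (223 CPM) of the young group, and their part in the value was not tested. The other Aldoa identifier was 0.6921 CPM in young replicate 2 (next 0.1709) and 0.8821 CPM in old replicate 1 (next 0.3444), levels that few counts decide. These were the 3 of 33 groups of values in which 1 library lay far from the rest, and chance gives about 1 in 20.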

How the results depend on the processing

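No paired analysis was possible because library numbers are unique and replicate numbers only follow accession order. Members called in old versus young were 3 with voom and sample quality weights, 0 with the run of library numbers as a term and 0 with the effective-length offset (Pfkp lost in both), 0 within numbers 1 to 11 and 2 within 12 to 24. Old repopulated versus old had 1 with voom and 4 within 12 to 24. In young repopulated versus young they were 3 with voom, 1 with the run term and 2 within 12 to 24. Old repopulated versus young had 6 with voom, 0 within 1 to 11 and 8 within 12 to 24. Old repopulated versus young repopulated had 7 with voom, 4 with the run term and 9 within 12 to 24, and in the interaction 1, 1 and 6. Leaving out 1 library gave 0 to 1 members in old versus young and 1 to 5 in old repopulated versus young, with 1 left without young replicate 1 or old repopulated replicate 6 or 8 and 5 without old repopulated replicate 1. The other 49 counts under another setting stayed within 1.5 times, and the cause of these changes was not tested.

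Signs changed only for values not called in the fit of all libraries. In old repopulated versus young, Pfkl and Gapdh changed sign within 1 to 11 and were called with voom and within 12 to 24. In old versus young voom gave -0.0106 for Aldoa, 0.0941 for Gapdh, -0.0866 for Ldha and -0.0762 for Hif1a, upper-quartile factors gave -0.0358 for Ldha and -0.0182 for Hif1a, numbers 12 to 24 gave -0.00898 for Aldoa, 0.127 for Gapdh and -0.0323 for Hif1a, and numbers 1 to 11 gave -0.0614 for Slc2a1. In young repopulated versus young Aldoa was -0.0281 with voom, -0.0616 with the run term and -0.0234 within 12 to 24. For old repopulated versus old Pfkl was -0.0845 within 12 to 24 and Hif1a -0.0512 within 1 to 11. For old repopulated versus young Pfkl was 0.0595 and Gapdh -0.0986 within 1 to 11, Slc2a1 0.0342 and the other Aldoa identifier 0.369 within 12 to 24, and Hif1a -0.00209 with voom. In the interaction Hk2 was 0.134 with the length offset and Pfkl -0.00173 within 12 to 24. Isozyme shares reversed within 12 to 24 by -0.219 percentage points for Aldoa in old versus young, and by -1.13 for Ldha and -2.155 for Slc2a1 in young repopulated versus young.

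When 1 library was left out, signs changed within these ranges. In old versus young they were -0.0413 to 0.0479 for Gapdh, -0.0421 to 0.123 for Hif1a, -0.109 to 0.149 for Ldha and -0.0162 to 0.167 for Slc2a1. For old repopulated versus old they were -0.0713 to 0.17 for Hif1a and -0.0137 to 0.789 for Pfkp, and in old repopulated versus young -0.0298 to 0.211 for Hif1a and -0.192 to 0.001635 for Slc2a1. For Pfkl in young repopulated versus young they were -0.0710 to 0.0510, and for Hk2 in the interaction -0.134 to 0.1102. The other Aldoa identifier gave -0.745 to 0.302 for old repopulated against young, -1.309 to 0.0312 for old repopulated against young repopulated and -0.556 to 1.187 for young repopulated against young libraries. Share differences, in percentage points, were -4.64 to 0.0943 for Hk2, -7.80 to 0.771 for Pfkl and -2.01 to 7.47 for Pfkp in old repopulated versus old, -0.0432 to 0.139 for Aldoa in old versus young, and -0.596 to 0.02605 for Aldoa and -0.278 to 2.325 for Slc2a1 in young repopulated versus young. Depth limited only the other Aldoa identifier.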
